A study of Homo sapiens with 12 samples.

Results

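The genes described here are 9 members of the NLRP family that are known for their roles in egg cells, early embryos and the germ line: NLRP2, NLRP4, NLRP5, NLRP7, NLRP8, NLRP9, NLRP11, NLRP13 and NLRP14. They were chosen by name, among 19821 protein-coding RefSeq genes of chromosomes 1 to 22 and X, and each was followed over its gene body and the 100 kb on either side. The measurement was the position of nucleolus-associated domains (NADs), parts of the chromosomes recovered together with purified nucleoli, in H9 cells, an established line of human embryonic stem cells for which the labels give no genetic change. Cells held in the naive state were grown in RSeT, and those in the primed state in mTeSR, with no other treatment. Each state had 3 libraries of nucleolar DNA and 3 of whole-cell DNA, and the authors deposited 1 list of regions per state, so the values below carry no replicate error and were not tested. Both states came from the same line, and with DNA libraries alone their markers could not be checked.

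NLRP proteins have a pyrin domain, a nucleotide-binding NACHT domain and leucine-rich repeats. Some relatives, such as NLRP3, assemble inflammasomes in immune cells, while many of the genes described here are known for transcription in oocytes, cleavage embryos or testis. This does not mean that each of them is silent in other cells. NLRP5, also called MATER, is part of the subcortical maternal complex of the egg, which early cleavage depends on, and maternal variants in NLRP7 and NLRP2 are known from molar pregnancies and imprinting disorders. DNA at the nucleolus is as a rule rich in silent chromatin. Transcription of these genes in the H9 cells was not measured here.

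The positions in the genome form 3 groups, all on hg38. NLRP7 and NLRP2 lie side by side on chromosome 19 (54923515 to 55001138), next to the killer-cell immunoglobulin-like receptor genes. A run of 6 members, NLRP9, NLRP11, NLRP4, NLRP13, NLRP8 and NLRP5, fills 353 kb of the same chromosome (55708438 to 56061810). NLRP14 lies alone on chromosome 11 (7020446 to 7090900). Their bodies were 29.97 to 75.0 kb long, with a median of 42.7 kb, against 24.5 kb over all coding genes, and all region limits near them fell on a 10 kb grid.

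Sequence before the annotated start was at hand for 8 of the 9 members, from RefSeq on GRCh38.p14; the missing entry was NLRP13. The 250 bases before the start are printed for 4 genes whose starts were covered differently: those of NLRP7 (chr19:54947531-54947780, minus strand) and NLRP9 (chr19:55738403-55738652, minus strand) lay outside naive NADs, that of NLRP8 (chr19:55947582-55947831, plus strand) inside, and that of NLRP14 (chr11:7020229-7020478, plus strand) is the one on another chromosome. Capitals mark CpG dinucleotides.
NLRP7: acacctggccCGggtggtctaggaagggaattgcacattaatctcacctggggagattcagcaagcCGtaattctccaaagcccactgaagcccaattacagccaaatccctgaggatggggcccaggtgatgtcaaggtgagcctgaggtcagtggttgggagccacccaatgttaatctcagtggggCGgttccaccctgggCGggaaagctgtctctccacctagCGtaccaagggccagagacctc
NLRP9: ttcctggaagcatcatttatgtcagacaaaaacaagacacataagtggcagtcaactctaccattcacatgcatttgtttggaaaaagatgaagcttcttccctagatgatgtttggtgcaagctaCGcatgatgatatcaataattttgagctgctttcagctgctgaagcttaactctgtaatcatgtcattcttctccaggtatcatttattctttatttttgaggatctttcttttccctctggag
NLRP8: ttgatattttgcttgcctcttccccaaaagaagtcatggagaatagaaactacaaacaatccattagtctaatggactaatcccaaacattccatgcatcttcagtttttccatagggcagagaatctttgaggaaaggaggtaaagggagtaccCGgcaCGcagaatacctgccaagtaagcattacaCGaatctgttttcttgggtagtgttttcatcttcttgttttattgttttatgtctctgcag
NLRP14: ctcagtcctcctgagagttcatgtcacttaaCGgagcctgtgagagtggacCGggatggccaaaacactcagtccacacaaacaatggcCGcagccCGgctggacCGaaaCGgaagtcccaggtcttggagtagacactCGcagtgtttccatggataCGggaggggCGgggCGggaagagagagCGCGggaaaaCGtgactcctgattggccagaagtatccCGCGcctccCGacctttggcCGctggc

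These windows differed in CpG content. The NLRP9 window held 1 CpG, that of NLRP8 3 and that of NLRP7 5, against 17 before NLRP14 and a median of 17 over 15812 coding genes. Set against the number that the C and G content would give, the CpG ratio was 0.114 for NLRP9, 0.306 for NLRP8, 0.248 for NLRP7 and 0.759 for NLRP14, and the median coding gene was at 0.737. The other members lay between, with 0.392 for NLRP5, 0.518 for NLRP2 at its first start, 0.585 for NLRP4 and 0.355 for the outer start of NLRP11. On chromosome 19, then, each window at hand, with none for NLRP13, had a ratio below the median coding gene, and that of NLRP14 was near it. The annotated starts were taken as given, and whether a window is a promoter in any cell was not tested. The letters CCAAT (or ATTGG on the other strand) were found before NLRP2, NLRP4, NLRP5, NLRP7, NLRP14 and the inner start of NLRP11, and in 34.4% of all coding windows. TAATTG (or CAATTA), the core letters bound by the oocyte homeobox factor NOBOX, was found before NLRP7 and in 5.41% of all windows.

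All 9 members touched NADs of both states, and this was close to what other genes of their size and place did. Any overlap with the naive list was found for 9 of 9 members and for 76.8% of all coding genes, and any overlap with the primed list for 9 of 9 members and for 81.8%. Among the 4397 coding genes whose length lay within the range of the members, 89.1% touched the naive list and 83.0% the primed list. Overlap with both lists was found for 9 of 9 members, for 65.2% of all coding genes and for 78.3% of those on chromosome 19. On chromosome 19, which holds 8 of the members, 78.4% of 1410 coding genes touched naive NADs and 99.9% touched primed NADs, and of the 265 there within the members' range of length 95.1% and 100% did. Touching a NAD was thus no distinction of these genes, and the values below are about how much of each gene was covered and where. With at least 50% of the body asked for, 5 of 9 members were in naive NADs (background 34.7% of all and 47.0% of chromosome 19 coding genes) and 9 of 9 in primed NADs (61.2% and 98.7%).

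By sequence, the members' bodies lay 54.5% in naive and 93.0% in primed NADs. The bodies of all coding genes lay 39.1% and 46.9% in them. For the 8 members on chromosome 19 the shares were 57.0% and 100%, against 47.6% and 97.8% over the coding genes of that chromosome. No part of these 8 bodies was in naive NADs alone, because a single primed region spans them all. The naive share of a member ran from 5.22% (NLRP9) to 100% (NLRP13), with a median of 53.2%, so the members differed among themselves in the naive list far more than in the primed list.

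**Figure D1:**
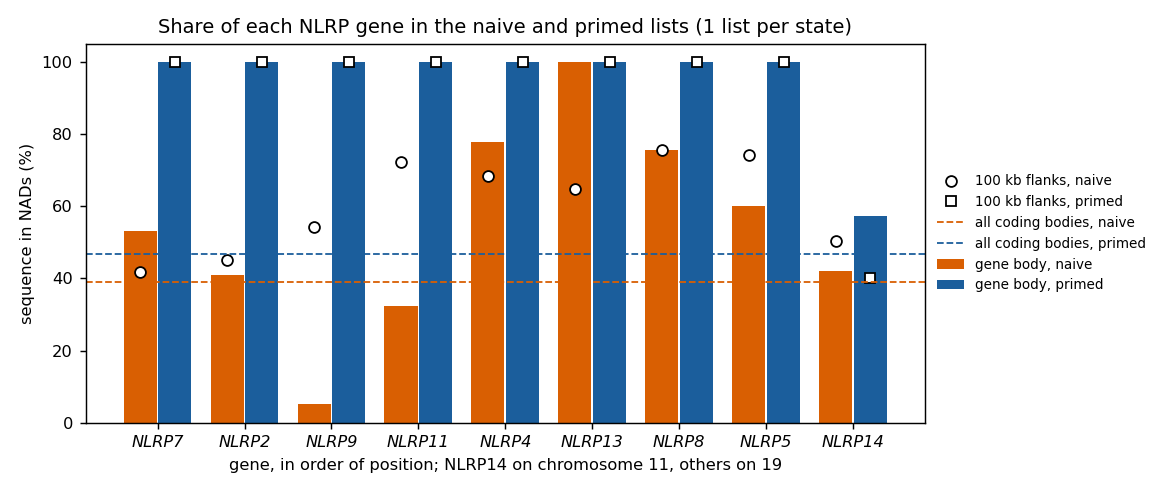
Share of the gene body (bars) and of the 100 kb flanks (open symbols) in naive and primed NADs for each of the 9 genes, in percent, with the share of all coding bodies as dashed lines. The primed bars stand at 100% for the 8 genes of chromosome 19 and at 57.4% for NLRP14, while the naive bars run from 5.22% to 100%.

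NLRP5, the member of the subcortical maternal complex, is the longest gene of the set (75.0 kb, chromosome 19, 55986775 to 56061810). It had 45.0 kb, or 60.0% of its body, in 3 naive regions, and 100% in primed NADs. Its annotated start lay inside a naive region of 30 kb that begins in the neighbouring NLRP8, and its far end inside one of 40 kb. The uncovered sequence was a stretch of 20 kb after the start and one of 10 kb further in.

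NLRP7 and NLRP2, named above for molar pregnancies and imprinting disorders, had smaller naive shares than NLRP5. NLRP7 (54923515 to 54966243) had 22.7 kb or 53.2% of its body in naive NADs, at both ends, and 20 kb between them was uncovered. The start with a RefSeq window, at 54947530, fell in that gap, 7.53 kb from the nearest naive region. It lies 18.7 kb inside the body used here, whose 5′ end at 54966243 fell in a naive region, so whether the NLRP7 start was covered turns on the start chosen. NLRP2 (54965284 to 55001138) had 14.7 kb or 41.0%, in 2 regions of 10 kb each. The first of these regions, from 54960001 to 54970000, held the start of NLRP2 and the 5′ end of the NLRP7 body. Both genes were 100% in primed NADs. Over the pair the naive share was 47.0%, below the 53.0% of the primed region around them.

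The flanks of this pair were unlike each other in the naive list. The 100 kb on the side of the immune receptor genes had 63.5% in naive NADs and the 100 kb on the other side 20.0%, with 58.9 kb uncovered next to NLRP2. On the first side, FCAR, an Fc receptor gene for immunoglobulin A, was 100% covered, NCR1, a natural killer cell receptor gene that overlaps NLRP7, 75.0%, and KIR3DL1 5.44%. On the other, GP6, the collagen receptor gene of platelets, was at 0% and EPS8L1 at 65.7%. All of these were 100% in primed NADs.

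**Figure D2:**
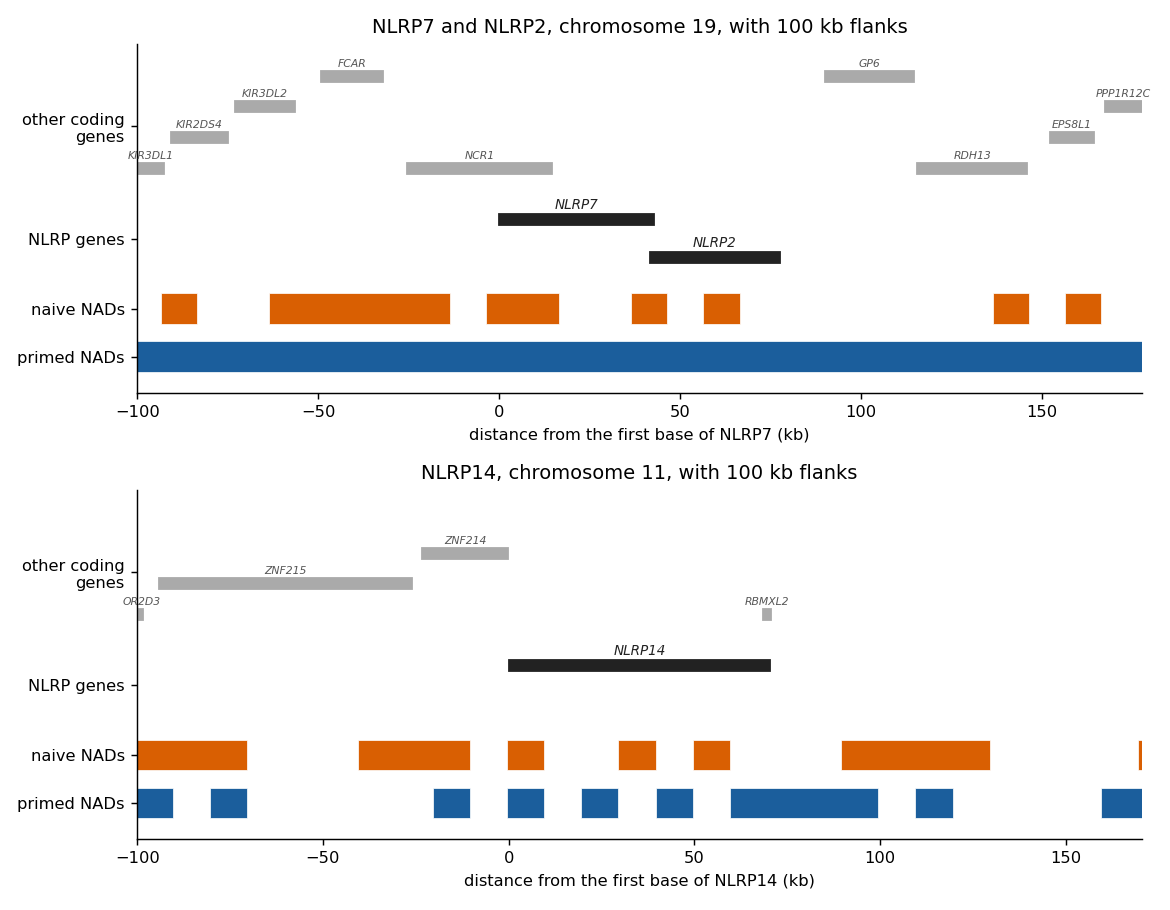
Naive regions (orange) and primed regions (blue) over NLRP7 and NLRP2 (upper panel) and over NLRP14 (lower panel), with coding genes above; the horizontal axis is the distance in kb from the first base of NLRP7 or NLRP14. A single primed region fills the upper panel, whereas over NLRP14 the 3 naive regions and the 4 primed ones share 1 bin of 10 kb.

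The run from NLRP9 to NLRP5 was the part with the most naive sequence, 63.2% of its 353 kb, and it was 100% in primed NADs. Its coverage was uneven along the run. NLRP9 (55708438 to 55738402), an oocyte gene, had 1.56 kb or 5.22% of its body in naive NADs, at the end that meets EPN1. Its start lay 11.6 kb from the nearest naive region, and 28.4 kb of the gene in a row was uncovered. NLRP11 (55785399 to 55836575) had 16.6 kb or 32.4%, all at the end that holds its start sites, and 34.6 kb in a row uncovered. These were the lowest naive shares of the 9 genes.

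The genes in the middle of the run were the most covered. NLRP4 (55836540 to 55881855) had 35.3 kb or 77.9% in naive NADs. NLRP13 (55891692 to 55932336) had all of its 40.6 kb inside 1 naive region. NLRP8 (55947832 to 55988629) had 30.8 kb or 75.5%. NLRP4, NLRP13 and NLRP8 are transcribed in oocytes, and less is known of what their proteins do than for NLRP5 or NLRP7.

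NLRP11 and NLRP4 are divergent neighbours whose annotated bodies share 36 bases at their starts. Both starts lay in the same naive region of 50 kb (55820001 to 55870000), which covers the first part of each gene. Between NLRP9 and NLRP11, the RFPL4A and RFPL4AL1 genes, near-identical copies of a RING finger family gene, were 100% in naive NADs, in a region that touches neither NLRP neighbour. Reads that match both copies equally well cannot be placed uniquely. How many reads do so, and the effect on the calls, was not tested.

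**Figure D3:**
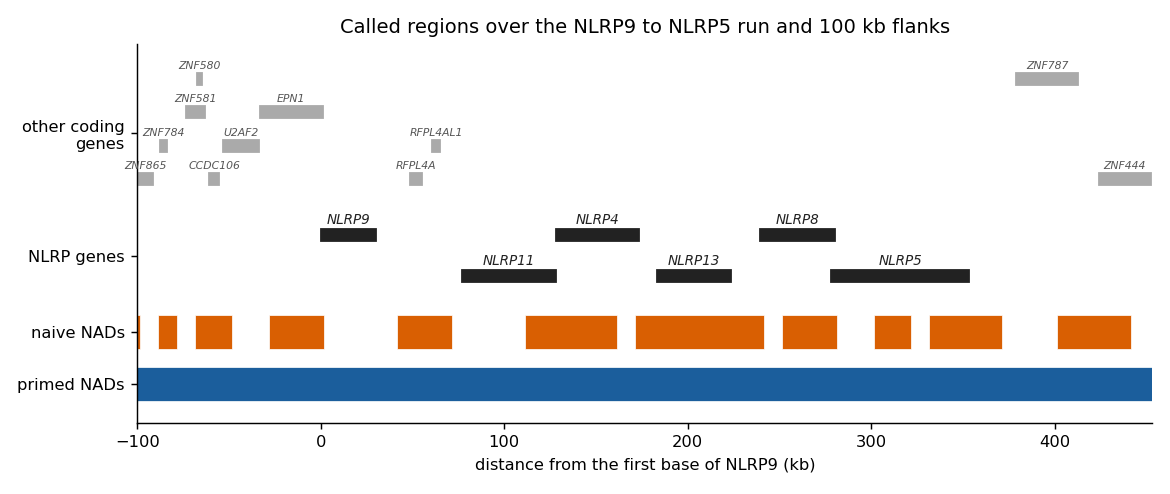
Naive regions (orange) and primed regions (blue) over the run from NLRP9 to NLRP5 and its 100 kb flanks, with the NLRP genes in black and other coding genes in grey; the horizontal axis is the distance in kb from the first base of NLRP9. Naive regions of 50 kb and 70 kb cover most of NLRP4 and all of NLRP13, and NLRP9 is almost free of them.

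The longest naive region on any member was 70 kb (55880001 to 55950000). It covers the end of NLRP4, all of NLRP13 and the start of NLRP8. Naive regions of at least 70 kb were 2.20% of the whole naive list and 4.21% of the 1282 on chromosome 19. Altogether 12 naive regions touched members, 5 of them a single bin of 10 kb, with a median of 20 kb. Over the list the median was 10 kb and 35645 of 61750 regions were a single bin, and on chromosome 19 the median was 15 kb and 641 of 1282 were. Long regions touch a gene more easily, so these lengths are no sign of anything particular to the members. With regions up to 10 kb apart joined, 1 naive stretch of 170 kb (55820001 to 55990000, 150 kb of it called) touched NLRP11, NLRP4, NLRP13, NLRP8 and NLRP5. Of the 639 joined stretches on chromosome 19, 43 were at least that long.

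No naive region on a member reached 100 kb, so with a minimum of 100 kb none of the 9 touched a naive NAD. Few genes did: 1.85% of all coding genes and 2.27% of those on chromosome 19 touched one that long. With gaps of up to 50 kb joined, on the other hand, 97.4% of the members' bodies lay in naive NADs, the 40 kb gap over NLRP9 included. The longest uncovered stretch within each of the 3 groups was 20 kb or 40 kb, so this join had to fill nearly all of them. It therefore does not bear on the differences between members, and the share of other genes under it is not given here. Counted in bins, NLRP9 had 3 of its 4 outside the naive list and NLRP13 0 of 5.

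In the primed list the 8 genes of chromosome 19 lay in 1 region of 9.30 Mb that runs from 49320001 to the end of the chromosome at 58617616. The region holds 329 coding genes in full, and the members begin 5.60 Mb after its start and end 2.56 Mb before its end, so no primed boundary lies within reach of a flank. Inside it, naive NADs covered 53.0% of the sequence, and 82.7% of its coding genes touched them, with a median covered share of 52.5%. The median over the 8 members was 56.6%.

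Cut into windows of 100 kb, the region had naive shares of 20% to 90%, with a median of 50% over the 86 windows that touched no member. The 6 windows that touched members had 30% to 90%, with a median of 60%. The window of NLRP7 and NLRP2 had 40%, that of NLRP9 with part of NLRP11 30%, and that of NLRP11, NLRP4 and NLRP13 90%. The members' windows thus spread over nearly the whole range of the region. The 707 kb between the 2 runs, with 39 coding genes of 8.35 kb at the median, had 46.4%, next to 47.0% for NLRP7 to NLRP2 and 63.2% for NLRP9 to NLRP5.

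**Figure D4:**
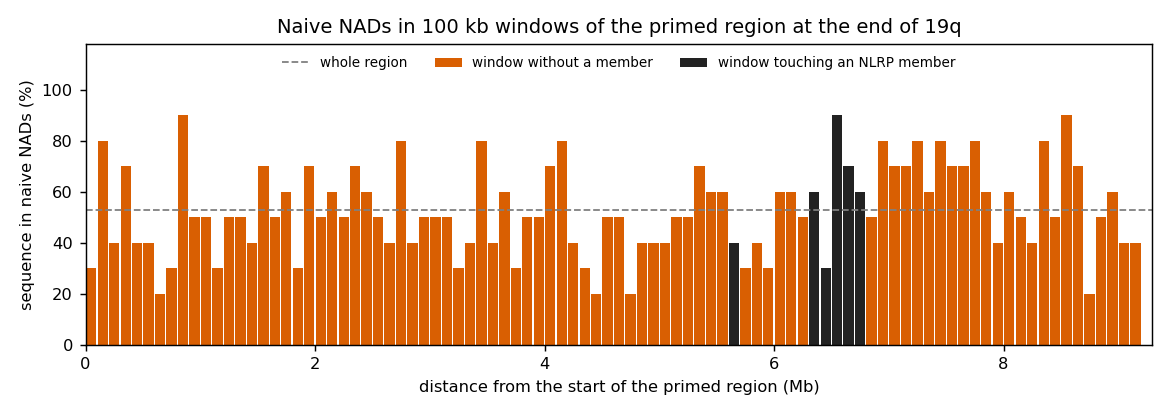
Share of sequence in naive NADs (vertical axis, percent) in 92 windows of 100 kb along the primed region at the end of chromosome 19 (horizontal axis, distance from its start in Mb); black bars touch an NLRP gene and the dashed line is the whole region at 53.0%. The 6 black bars run from 30% to 90%, within the spread of the orange ones.

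The 100 kb flanks of a member, both sides together, were 41.8% (NLRP7) to 75.7% (NLRP8) in naive NADs, and 100% in primed NADs for each gene of chromosome 19. For NLRP9 the flanks had 54.2%, far above the 5.22% of its body, and for NLRP13 they had 64.7%, below the 100% of its body. The flanks of neighbours share sequence, so these values are not independent. Counted once, and without the bodies, the flanks were 53.2% naive and 82.2% primed.

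The neighbours of the run include several zinc finger genes. EPN1, the epsin gene that overlaps the end of NLRP9, had 86.1% in naive NADs and U2AF2, the splicing factor gene, 25.2%. ZNF784, ZNF580 and CCDC106 were at 100%, and ZNF787, beyond NLRP5, at 33.3%. The 100 kb before the run had 60.0% and the 100 kb after it 58.2%, near the 63.2% of the run.

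NLRP14, known for germ cell expression and spermatogenesis, was the exception to the pattern of chromosome 19. It had 29.6 kb or 41.9% of its 70.5 kb body in naive NADs and 40.5 kb or 57.4% in primed NADs. Of the body, 13.6% was in both lists, 28.4% in naive NADs alone, 43.9% in primed NADs alone and 14.2% in neither. Over the coding bodies of chromosome 11 these shares were 16.4%, 20.1%, 25.2% and 38.2%. The share in both was thus near that of the chromosome, and the share in neither was lower, for a single gene. Of the 8 bins of 10 kb that its body touches, 1 was in both lists, 2 in the naive list alone, 4 in the primed list alone and 1 in neither.

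The shared bin, from 7020001 to 7030000, held the annotated start of NLRP14. The next bin was in neither list, the calls then alternated between the lists over the 5 bins from 7040001 to 7090000, and the last 0.9 kb was again primed alone. The naive regions on NLRP14 were 3 single bins, and the primed ones 3 single bins and 1 region of 40 kb (7080001 to 7120000) over its far end. That end holds RBMXL2, a small testis gene related to an X-linked RNA-binding protein gene, which was 100% primed and 0% naive. The flanks of NLRP14 were 50.5% naive and 40.0% primed, with ZNF214 at 57.0% and 44.5% and ZNF215 at 55.9% and 20.0%.

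At the annotated starts, the naive list covered NLRP2, NLRP4, NLRP5, NLRP8, NLRP11 and NLRP14, and not NLRP9. NLRP7 was uncovered at its RefSeq window and covered at the 5′ end of its body. The background was 41.7% of 15812 coding starts and 50.4% of 1185 on chromosome 19. The primed list covered the start of every one of the 8 members with an annotated window, against 65.9% and 98.7%. NLRP4 and NLRP11 share a region, so the 6 genes with a covered start rest on 5 naive regions.

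The rest of the NLR family was spread over the genome, and its median shares were near those of all coding genes. For the coding genes of chromosome 19, where most members lie, the medians were 45.5% naive and 100% primed. Of 13 other NLR genes, 9 touched naive and 13 touched primed NADs, against 76.8% and 81.8% of all coding genes. Their median covered shares were 32.4% and 68.9%, beside 35.6% and 75.8% over all coding genes. NLRP12, a regulator of inflammation, lies in the same primed region as the 8 members of chromosome 19. It was 100% primed and had 0% in naive NADs. NLRC3, a dampener of immune signalling on chromosome 16, was 73.9% primed and 0% naive. The inflammasome gene NLRP3 was 26.9% primed and 0% naive, NLRP1 100% and 46.4%, and NLRC4, the partner of receptors for bacterial flagellin, 24.2% and 72.6%. On chromosome 11, NLRP10 was at 68.9% in both lists.

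The partners of NLRP5 in the subcortical maternal complex were divided between the lists. Of 5 genes, 4 touched naive and 3 touched primed NADs, 2 of them both. Over all coding genes 76.8% touched naive NADs, 81.8% primed NADs and 65.2% both. TLE6, on the short arm of chromosome 19, was 100% primed and 56.2% naive. PADI6, an arginine deiminase family gene of the oocyte, was 66.1% primed and 0% naive, whereas ZBED3 was 52.1% naive and 0% primed. KHDC3L, also tied to familial molar pregnancy, was 100% naive and 0% primed, and its neighbour OOEP 5.43% naive and 19.4% primed. KHDC3L is 1.51 kb long, less than 1 bin. NLRP5 itself had 60.0% and 100%.

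Among 21 other maternal-effect and oocyte genes, 14 touched naive and 16 touched primed NADs, and 3 touched neither. Of all 19821 coding genes, 76.8% touched naive and 81.8% touched primed NADs, and 1302 genes touched neither. The median shares of the 21 genes were 13.6% naive and 59.2% primed, over genes of 12.8 kb at the median, shorter than the NLRP genes. ZAR1, a regulator of maternal RNA, DPPA3 and the egg coat gene ZP2 were 100% primed and 0% naive, and the oocyte kinase gene MOS was 100% naive and 0% primed. ZAR1 (7.38 kb), DPPA3 (6.13 kb) and MOS (1.04 kb) are each shorter than 1 bin of 10 kb, so their shares rest on very few bin calls. NOBOX, GDF9 and ZP4 were in neither list. None of the 9 NLRP genes was in 1 list alone, and 6 of these 21, 3 of the 5 complex partners and 4 of the 13 other NLR genes were. Of all coding genes 28.2% were, of those within the NLRP genes' range of length 21.8%, and of those of that length on chromosome 19 4.91%, so genes of the size and place of most NLRP members were seldom in 1 list alone.

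**Figure D5:**
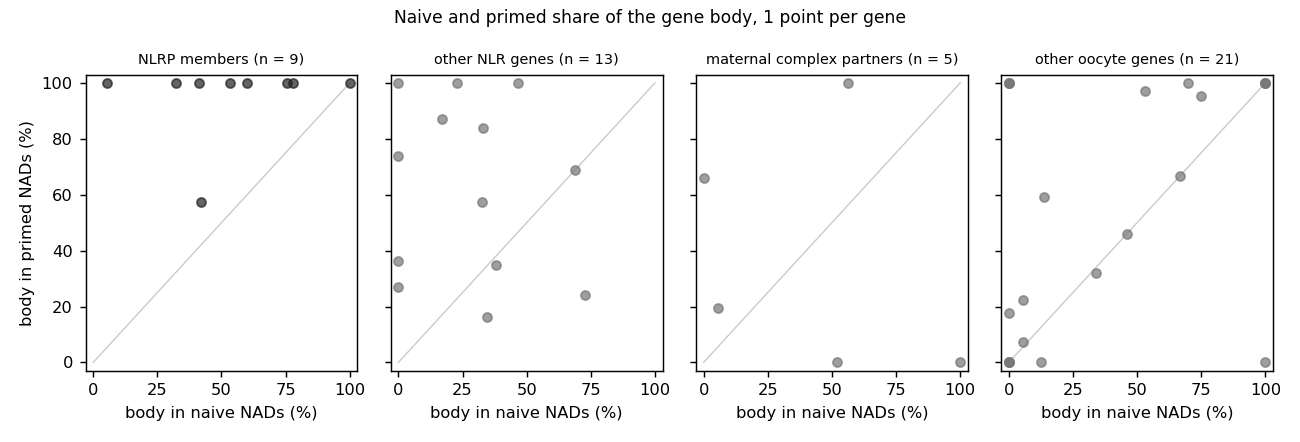
Share of the gene body in naive NADs (horizontal axis, percent) against primed NADs (vertical axis, percent), 1 point per gene, for the 9 NLRP genes, 13 other NLR genes, 5 partners of the subcortical maternal complex and 21 other oocyte genes. Of the NLRP genes, 8 lie along the upper edge at 100% primed, and the points of the other lists fill more of the area.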

How the data were processed

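The 12 libraries (3 of nucleolar and 3 of whole-cell DNA per H9 cell state) were grouped by the labels. Per the labels' protocols, nucleoli were pelleted from crosslinked, sonicated cells, and PCR-free libraries with 350 bp fragments were read as 150 bp pairs. The authors deposited 1 list of regions per state on hg38 (chromosome, start and end), with no score. The submitters' processing notes name BWA, SAMtools 1.10 and SICER; no source used here gives the settings, the use of replicates or the read depth. A difference between the lists can therefore come from depth or calling as well as from the cells, and these cannot be told apart.

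Gene bodies came from RefSeq (GRCh38.p14, the assembly of hg38). Covered bases, 10 kb bins and 250-base start windows were computed with Python 3.11.15, numpy 2.4.6, pandas 2.3.3 and scipy 1.17.1, checked on simulated regions, and drawn with matplotlib 3.10.9. A gene touched a list when 1 base or more overlapped. Named genes were the members, coding genes that overlap a run of members, and genes of 3 further lists, named where 50% or more of the body was in 1 list and none in the other or where the list had 5 members; the coding genes named in the flanks, and NLRP1, NLRP3, NLRP10, NLRC4, NOBOX, GDF9 and ZP4, were chosen after their values were seen. Members and lists were chosen with earlier results of these data known. Protein sequences were not used here.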

Additional observations from a re-analysis of the deposited data

How the results depend on the processing

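Shares were compared with the exact 95% binomial interval of the main value, counted in 10 kb units, and counts with a limit of 1.5 times. Neighbouring units often lie in the same region and are not independent. The interval is therefore only a yardstick for the size of a shift, and measures no spread between replicates. Joining regions up to 50 kb apart raised the naive share to 97.4% of the bodies and 91.2% of the flanks, and the primed share to 100% of both; joining up to 10 kb already gave 100% of the bodies in primed NADs. With regions of at least 100 kb alone, 0 members touched naive NADs, 0% of bodies and 0% of flanks lay in them, and the primed flanks fell to 70.3%. Asking for 50% of the body left 5 members in naive NADs. With the chromosome 19 members alone, bodies and flanks were 100% primed. A join can only raise a share and a stricter minimum can only lower it, while the size of each shift depended on the regions. The other 28 values stayed within the limits. Among them, with regions of at least 20 kb alone, 7 members touched naive NADs and 43.0% of bodies lay in them. NLRP2 and NLRP14, whose naive regions were single bins, no longer touched one. No paired analysis was possible because there is 1 list per state, with no value for a single replicate, and so no replicate was left out. Depth is unknown, so an uncovered bin cannot be told apart from one too thinly sequenced to call.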

Other observations

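NLRP2 has 2 annotated starts 1090 bases apart whose windows of 300 bases differ at 3 positions, a local duplication that both RefSeq entries on chromosome 19 show. Both starts lie in the same naive region of 10 kb, and the effect of these copies on that call was not tested. The inner start of NLRP11 had a CpG ratio of 0.447 and the outer one 0.355, and the letters TATAAA (or TTTATA), found in 9.25% of coding windows, occurred in the outer one and in no other window of the members.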
